A study of Mus musculus with 62 samples.

Results

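This is a description of 34 genes of glycolysis and glycogen metabolism in mouse hindlimb muscle over the course of melanoma-induced cachexia, the wasting that accompanies some tumours. The members were chosen by symbol, from uptake of glucose through glycolysis to lactate and from glycogen breakdown to glycogen synthesis, and 34 of 34 were among the 47643 symbols of the expression table. All 34 passed the minimum of a mean of 1 TPM (transcripts per 1000000, a length-corrected share of the library) over the libraries, the lowest being Pfkp with a mean of 1.02 TPM. Without the CAC libraries at 6 and 8 weeks the mean of Pfkp was 0.860 TPM, so it passed only through the groups where it was high, and its calls and its place in the counts are given as a description. RNA of the tibialis anterior, a fast muscle of the shin, was measured in 62 libraries from female mice aged 2 months at injection, per the series' design text. The mice had been injected with cachectic melanoma cells (CAC), with melanoma cells labelled non-cachectic (NCAC), or mock injected (Con), and muscles were taken 2, 4, 6 or 8 weeks later. There were 7 libraries of CAC at 8 weeks and 5 of each of the other 11 groups. The labels name the strain as C57BL6/J, whereas the series' design text names NCI Ath/nude mice, so the strain could not be settled. The labels name neither the melanoma lines nor a batch. Their extraction protocol mentions a time point after injection of LLC cells that matches no sample here, which could not be settled. They call the libraries biological replicates without naming animals, so p-values judge differences against the spread between libraries. For single genes that spread was shared by all 12 groups.

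Muscle takes up glucose through the transporters GLUT1 and GLUT4, phosphorylates it with hexokinase so that it stays in the cell, and splits the sugar into pyruvate with a net gain of ATP. Fast fibres hold large stores of glycogen, which phosphorylase breaks down on contraction and glycogen synthase rebuilds at rest, and phosphatase subunits that bind glycogen tip the balance towards storage. Many of these steps have one isoform that is abundant in muscle fibres and another that is made in most cell types.

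Differences between groups are given on 2 scales, because TPM is a share of a fixed total, and the values of single libraries are as deposited unless called rescaled. Transcripts of the mitochondrial genome took 48.8 ± 7.07% of TPM in the mock libraries at 8 weeks (SD, n = 5) and 37.7 ± 2.43% in the CAC libraries (SD, n = 7). The rescaled values divide each library by a median-of-ratios size factor, which sets the typical gene level, and the median difference of the 11107 genes tested between CAC and mock at 8 weeks was 0.46 on the log2 scale as deposited and 0.02 rescaled. Markers of skeletal muscle fibres summed to 83894 ± 15645 TPM in the mock and 84383 ± 13049.5 TPM in the CAC libraries at 8 weeks. As deposited, 5 of these 8 markers had a higher mean in CAC. Rescaled, they summed to 90761 ± 9372 and 64727 ± 12895, with no overlap. Replicate 1 of CAC at 6 weeks and replicates 1 and 6 of CAC at 8 weeks lay farthest out on the first principal component of all genes (49.7% of the variance), and values without these 3 libraries are given where they end a call or move a value. In a bulk tissue, fewer cells of a type and less RNA per cell cannot be told apart.

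The largest change among the members was in Ppp1r3c, a subunit that targets a phosphatase to glycogen, whose mean in CAC muscle at 8 weeks was 7.08 times that of mock muscle as deposited and 4.97 times rescaled. The broadly expressed glucose transporter Slc2a1 was 2.71 and 1.90 times higher and the hexokinase Hk1 1.98 and 1.40 times higher on the same scales. At 8 weeks the members called higher in CAC than in mock muscle on both scales were Slc2a1, Hk1, Gpi1 and Ppp1r3c. The members called lower on both scales were Pfkfb1, Pgam2, Pkm, Ldhb and Pgm2. At 6 weeks, Slc2a1, Hk1, Gpi1, Gyg and Ppp1r3c were called higher and Pfkfb1, Ldhb and Pgm2 lower on both scales. Pfkp was also called higher on both scales at 6 weeks, but it passed the filter only through late CAC muscle, so that call is a description only.

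As deposited, 12 members were called higher and 5 lower in CAC than in mock muscle at 8 weeks (limma, Benjamini-Hochberg adjusted p under 0.05), against 69.4% and 5.09% of all genes tested. Rescaled, 4 were called higher and 19 lower, against 24.9% and 24.2% of all genes. At 6 weeks, 14 were called higher and 3 lower as deposited, against 60.7% and 3.26% of all genes, and 6 higher and 12 lower rescaled, against 16.9% and 18.1%. Pfkp is 1 of those called higher in each of these counts except the rescaled one at 8 weeks. The median log2 difference of the members was 0.16 as deposited and -0.35 rescaled at 8 weeks, below the 0.46 and 0.02 of all genes on the same scales. The members' median at 6 weeks was 0.28 as deposited and -0.13 rescaled, and that of all genes 0.38 and 0.01. Of the 13 enzymes and subunits of lower glycolysis and glycogen breakdown, 3 were called higher and 2 lower as deposited at 8 weeks, and 0 higher and 10 lower rescaled. The split between higher and lower calls thus turned with the scaling, and Slc2a4 was called higher on one scale and lower on the other at 8 weeks.

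**Figure D1:**
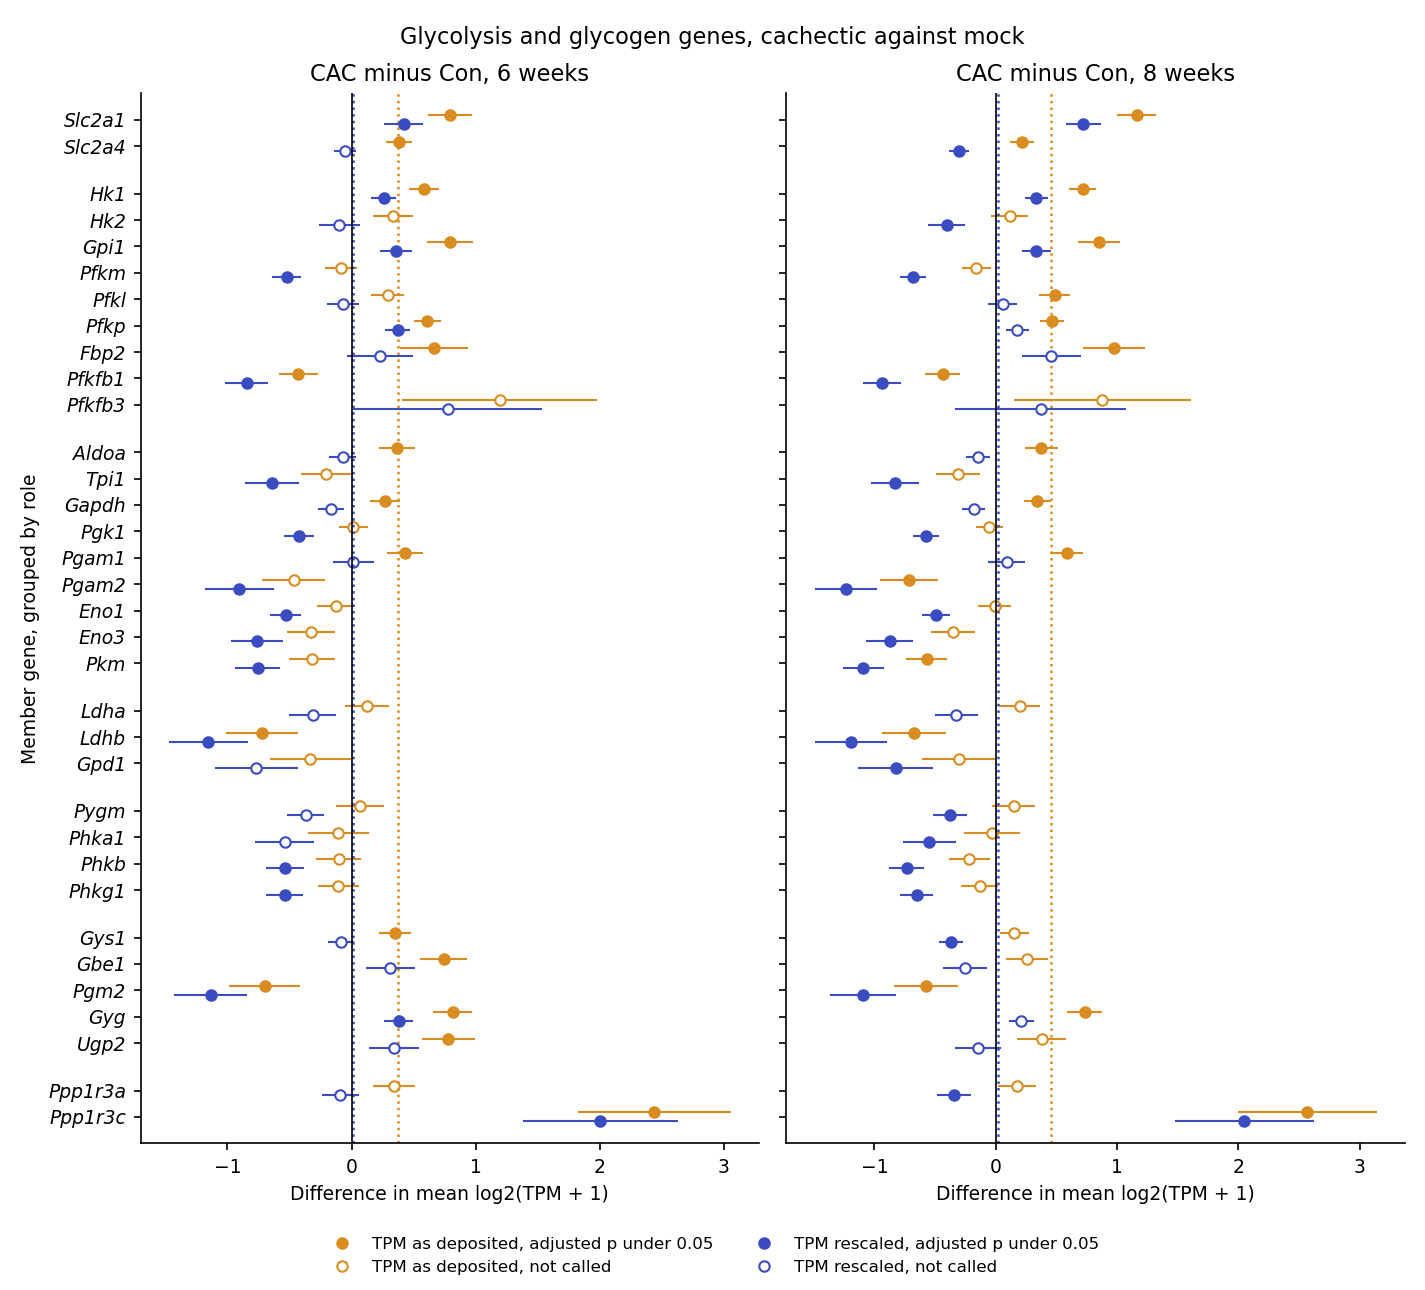
Difference in mean log2(TPM + 1) between CAC and mock libraries at 6 and 8 weeks (x axis) for the 34 members in order of their role (y axis), as deposited (orange) and rescaled (blue). Bars are the standard error of the model, filled points have an adjusted p under 0.05, and dotted lines mark the median of all genes tested on each scale; Ppp1r3c stands apart on the right at 2.57 and 2.05 at 8 weeks.

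The second reference was muscle of mice injected with the non-cachectic melanoma cells. At 8 weeks, 11 members were called higher and 5 lower as deposited, against 67.0% and 5.04% of all genes, and 4 higher and 19 lower rescaled, against 25.3% and 24.3%. At 6 weeks, 16 were called higher and 3 lower as deposited, against 64.2% and 3.52% of all genes, and 6 higher and 15 lower rescaled, against 20.8% and 21.7%. Slc2a1, Hk1 and Ppp1r3c were called higher and Pfkfb1, Pgam2, Eno3, Pkm and Ldhb lower on both scales at 8 weeks. Pfkp was called higher on both scales too, and all 4 of these counts include it. The comparisons with mock and with NCAC muscle share the CAC libraries, so they are not independent of each other.

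At 2 and 4 weeks few members were called. CAC against mock gave 0 calls at 2 weeks (0.0540% of all genes as deposited, 0.108% rescaled) and 0 at 4 weeks (0.936% and 1.49%). At an unadjusted p under 0.05 stood 4 members at 2 weeks and 3 at 4 weeks as deposited, and 1 and 4 rescaled. Shares in brackets here are of genes called after adjustment. The share of all genes at an unadjusted p under 0.05 is not given, so the unadjusted counts in this paragraph are a description only. CAC against NCAC gave 0 calls at 2 weeks (0.0630% of all genes as deposited and 0.0540% rescaled), with 3 members at an unadjusted p under 0.05 on each scale. At 4 weeks it gave 0 calls as deposited (5.27% of all genes), with 4 members at an unadjusted p under 0.05, and 3 rescaled (6.46%), all lower: Hk2 at -0.52, Eno1 at -0.47 and Ldhb at -1.08 on the log2 scale. The CAC against mock difference itself was larger at 6 than at 4 weeks for 1 member as deposited, Pfkp, by 0.61 (0.882% of all genes). Pfkp passed the filter through the CAC libraries at 6 and 8 weeks, so this interaction is no independent support. The difference was larger for 0 members rescaled (0% of all genes), where 3 stood at an unadjusted p under 0.05. Between 6 and 8 weeks it differed for 0 members on either scale (0% of all genes on both), with 0 as deposited and 3 rescaled at an unadjusted p under 0.05.

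Between NCAC and mock muscle limma called no member at any week. NCAC against mock gave 0 calls on both scales at 2 weeks (0.162% of all genes as deposited, 0.207% rescaled), 4 weeks (0% and 0%), 6 weeks (0% and 0%) and 8 weeks (0.00900% and 0.0180%). As deposited, 1 member, Slc2a1 at 6 weeks, stood at an unadjusted p under 0.05 with a difference of -0.36, and rescaled 1 did, Pfkp at 2 weeks with -0.22. The share of all genes at that threshold is likewise not given, so both are a description only. The standard errors at 8 weeks ran from 0.106 for Slc2a4 to 0.787 for Pfkfb3 as deposited, which limits the size of change that could have been seen in each.

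Glucose uptake was represented by Slc2a1, which encodes GLUT1, the transporter of basal uptake in most cell types, and Slc2a4, which encodes the insulin-responsive GLUT4 of muscle and fat. Slc2a1 (chr4:119108711-119137983, plus strand, GRCm38) stood at 3.28, 4.66, 2.86, 3.15 and 2.48 TPM in the mock libraries at 8 weeks and at 3.78, 2.73, 3.24, 2.63 and 4.83 TPM in the NCAC libraries. In the 7 CAC libraries it ran from 4.49 to 11.7 with a median of 9.57 TPM. Replicate 3 of CAC fell within the range of the mock libraries and the other 6 lay above all of them. The difference was 1.16 ± 0.16 (adjusted p 2.83e-08) as deposited and 0.72 ± 0.15 (adjusted p 7.09e-05) rescaled, with all 7 CAC libraries above the mock mean. At 6 weeks the CAC libraries stood at 9.21, 6.25, 10.4, 6.68 and 6.23 TPM and the mock libraries at 4.57, 3.42, 3.86, 4.77 and 3.33 TPM, with no overlap, and the difference was 0.79 ± 0.17 (adjusted p 0.000167) as deposited and 0.42 ± 0.16 (adjusted p 0.0342) rescaled. The rescaled call at 6 weeks was lost without replicate 2 or 5 of the mock group or replicate 1 or 3 of CAC, each taken alone (0.32 to 0.41). Group means in CAC were 4.09 ± 0.715, 5.19 ± 1.21, 7.75 ± 1.93 and 8.89 ± 2.93 TPM at 2, 4, 6 and 8 weeks, and those of mock and NCAC muscle lay between 2.89 and 3.99 TPM.

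Slc2a4 (chr11:69942539-69948188, minus strand) was far more abundant, at 318, 375, 317, 303 and 263 TPM in the mock libraries, 307, 307, 394, 374 and 302 TPM in the NCAC libraries and from 352 to 379.8 with a median of 362 TPM in the CAC libraries at 8 weeks. As deposited 5 of the 7 CAC libraries lay inside the mock range and 2, replicates 1 and 6, just above it. Rescaled, all 7 CAC libraries, from 259 to 302 with a median of 276, lay below the 5 mock libraries, whose values were 345, 346, 351, 328 and 341. The difference was 0.22 ± 0.10 (adjusted p 0.0408) as deposited and -0.30 ± 0.08 (adjusted p 0.00155) rescaled, which are calls in opposite directions. The deposited call was lost in 7 of the 12 fits that left out 1 library of these groups, 4 of them mock libraries (replicates 1, 3, 4 and 5) and 3 CAC libraries (replicates 1, 3 and 6).

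Hexose phosphorylation and the steps at fructose bisphosphate held 9 members. Of these, 5 were called higher and 1 lower as deposited at 8 weeks, and 2 higher and 3 lower rescaled (all genes tested: 69.4% higher and 5.09% lower as deposited, 24.9% and 24.2% rescaled). Hk1 (chr10:62268855-62379908, minus strand), the hexokinase of most tissues, stood at 2.00, 2.54, 1.99, 1.82 and 1.51 TPM in the mock and 1.46, 1.42, 1.86, 1.69 and 2.31 TPM in the NCAC libraries at 8 weeks. Its 7 CAC libraries ran from 3.04 to 5.01 with a median of 3.94 TPM, and each lay above every mock and NCAC library as deposited, as did 6 of the 7 rescaled. The difference was 0.72 ± 0.11 (adjusted p 2.8e-07) as deposited and 0.33 ± 0.09 (adjusted p 0.00307) rescaled, and 1.98 times by mean TPM. At 6 weeks the CAC libraries stood at 4.02, 2.52, 4.26, 3.55 and 3.22 TPM against 1.83, 1.87, 1.95, 1.98 and 2.34 TPM in the mock libraries, with no overlap as deposited and 4 of 5 CAC libraries above the mock libraries rescaled. The 6-week difference was 0.58 ± 0.12 (adjusted p 8.05e-05) as deposited and 0.26 ± 0.10 (adjusted p 0.0426) rescaled, and the rescaled call was lost in 8 of the 10 fits that left out 1 library, the exceptions being replicate 5 of the mock group and replicate 2 of CAC.

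Hk2 (chr6:82725025-82774454, minus strand), the insulin-regulated hexokinase of muscle, stood at 104, 147, 116, 97.6 and 94.7 TPM in the mock, 107, 104, 129, 142 and 116 TPM in the NCAC and from 85.9 to 148 with a median of 123 TPM in the CAC libraries at 8 weeks. These ranges overlapped as deposited, with the lowest value in replicate 1 of CAC. The difference was 0.12 ± 0.15 (adjusted p 0.492) as deposited and -0.40 ± 0.15 (adjusted p 0.0257) rescaled, and the rescaled call was lost without replicate 2 or 3 of the mock group, replicate 1 or 2 of CAC, or the 3 outlying libraries (-0.30). Gpi1 (chr7:34201330-34230336, minus strand), glucose-6-phosphate isomerase, stood at 212, 225, 182, 216 and 122 TPM in the mock and from 249 to 547 with a median of 301 TPM in the CAC libraries, with no overlap as deposited, and at 194, 166, 262, 229 and 218 TPM in the NCAC libraries, whose highest value exceeded the lowest of CAC. Its difference from mock was 0.86 ± 0.17 (adjusted p 2.41e-05) as deposited and 0.34 ± 0.12 (adjusted p 0.0192) rescaled. The rescaled call was lost without replicate 5 of the mock group (0.24), without replicate 6 of CAC (0.25) and without the 3 outlying libraries (0.18). At 6 weeks the CAC libraries stood at 747, 363, 285, 378 and 324 TPM and the mock libraries at 266, 217, 195, 214 and 249.7 TPM, and replicate 1 of CAC, at 747 TPM, stood far above the next highest, replicate 4 at 378 TPM. The 6-week difference was 0.79 ± 0.19 (adjusted p 0.000358) as deposited and 0.36 ± 0.13 (adjusted p 0.0286) rescaled, and the rescaled call was lost without replicate 2, 3 or 4 of the mock group or replicate 1 of CAC (0.19).

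Phosphofructokinase, which commits the sugar to glycolysis, has a muscle subunit (Pfkm), a liver subunit (Pfkl) and a platelet subunit (Pfkp). Pfkm (chr15:98092589-98132451, plus strand) dominated, at 2628, 2926, 2537, 2916 and 1944 TPM in the mock, 2396, 2208, 2699, 2715 and 2499 TPM in the NCAC and from 1714 to 2699.9 with a median of 2492 TPM in the CAC libraries at 8 weeks. As deposited the groups overlapped, and rescaled all 7 CAC libraries, from 1173 to 2162 with a median of 1960.0, lay below the mock libraries, of which the lowest was 2527. The difference was -0.16 ± 0.12 (adjusted p 0.224) as deposited and -0.68 ± 0.11 (adjusted p 1.36e-06) rescaled. The 2 minor subunits stood at a few TPM or less and were called higher as deposited at 8 weeks, Pfkl by 0.49 ± 0.13 and Pfkp by 0.46 ± 0.10, but not rescaled (0.06 and 0.18). At 6 weeks Pfkp was called higher on both scales, with 1.57, 1.37, 2.01, 1.88 and 1.49 TPM in CAC and 0.858, 0.469, 0.723, 0.902 and 0.754 TPM in mock libraries and a difference of 0.61 ± 0.11 (adjusted p 9.97e-06) as deposited and 0.37 ± 0.10 (adjusted p 0.00339) rescaled. Each of the 5 CAC libraries lay above each mock library, although these levels are near the minimum of 1 TPM, where a pseudocount of 1 shrinks the difference. Pfkp passed the filter through these late CAC libraries. With no filter on low values the deposited difference was 0.61 (adjusted p 1.31e-05, limma).

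Fbp2, the muscle fructose-1,6-bisphosphatase that runs the phosphofructokinase step backwards towards glycogen, stood at 105, 106, 68.6, 132 and 74.0 TPM in the mock, 94.2, 90.6, 80.8, 147 and 76.1 TPM in the NCAC and from 89.0 to 301 with a median of 234 TPM in the CAC libraries at 8 weeks. Replicates 1 and 6 of CAC, 2 of the 3 outlying libraries, held its lowest CAC values, 89.0 and 125 TPM, within the mock range. The difference was 0.98 ± 0.25 (adjusted p 0.000622) as deposited and 0.46 ± 0.24 (adjusted p 0.113) rescaled, and without the 3 outlying libraries it was 1.30 as deposited and 0.84 rescaled, both then called. In CAC muscle its group means were 104 ± 22.5, 137 ± 59.0, 188 ± 57.0 and 201 ± 76.0 TPM from week 2 to week 8, and in mock muscle 69.9 ± 12.6, 79.5 ± 20.2, 117 ± 36.8 and 97.1 ± 25.9 TPM.

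Pfkfb1 and Pfkfb3 encode bifunctional enzymes that set the level of fructose 2,6-bisphosphate, the activator of phosphofructokinase. Pfkfb1 (chrX:150588229-150643878, plus strand) stood at 24.6, 28.7, 33.2, 29.8 and 34.9 TPM in the mock, 26.6, 31.4, 27.8, 30.0 and 39.0 TPM in the NCAC and from 17.3 to 27.5 with a median of 22.3 TPM in the CAC libraries at 8 weeks. As deposited 5 of the 7 CAC libraries lay below all mock libraries and replicates 1 and 5 did not, and rescaled all 7 did. The difference was -0.44 ± 0.14 (adjusted p 0.00564) as deposited and -0.94 ± 0.16 (adjusted p 3.62e-06) rescaled, and each of the 12 fits without 1 library kept both calls. At 6 weeks it was -0.43 ± 0.15 (adjusted p 0.0145) as deposited and -0.85 ± 0.17 (adjusted p 0.000162) rescaled, and the deposited call was lost without replicate 2 of the mock group (-0.30) or replicate 1 of CAC (-0.36). Pfkfb3, the inducible form, had the largest standard error of all members, with 46.8, 51.2, 35.2, 59.8 and 11.5 TPM in the mock, 38.1, 21.2, 38.3, 10.3 and 64.8 TPM in the NCAC and from 19.5 to 251 with a median of 43.9 TPM in the CAC libraries at 8 weeks. Its 3 highest CAC libraries were replicates 1, 6 and 2, and the groups overlapped. The difference of 0.88 ± 0.73 (adjusted p 0.271) as deposited and 0.37 ± 0.71 (adjusted p 0.685) rescaled was not called on either scale.

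Lower glycolysis, from aldolase to pyruvate kinase, held 9 members and the most abundant ones, led by Aldoa with a mean of 7397 TPM over all libraries. As deposited 3 were called higher at 8 weeks and 2 lower, and rescaled 0 higher and 6 lower, against 69.4% higher and 5.09% lower of all genes as deposited and 24.9% and 24.2% rescaled. Pgam2 (chr11:5801640-5803733, minus strand), the muscle phosphoglycerate mutase, stood at 3653, 3974, 3764, 3550.1 and 2388 TPM in the mock and 3411, 3382, 3420.3, 3877 and 3433 TPM in the NCAC libraries at 8 weeks. In the CAC libraries it ran from 646 to 3699.7 with a median of 2759 TPM, with replicates 1 and 6 at 646 and 944 TPM and the other 5 between 2594 and 3699.7 TPM. The difference was -0.72 ± 0.24 (adjusted p 0.00619) as deposited and -1.24 ± 0.26 (adjusted p 8.97e-05) rescaled. As deposited the groups overlapped, and rescaled every CAC library lay below every mock library. Without the 3 outlying libraries the difference was -0.15 as deposited, no longer called, and -0.62 rescaled, still called. At 6 weeks the CAC libraries stood at 1283, 2631, 3233, 2817 and 2791 TPM, again lowest in replicate 1, against 3394, 3151, 3296, 3423 and 3582 TPM in the mock libraries. The 6-week difference was -0.47 ± 0.26 (adjusted p 0.105) as deposited and -0.90 ± 0.28 (adjusted p 0.00928) rescaled, and the rescaled call was lost without replicate 1 of CAC (-0.61).

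Pkm (chr9:59656368-59679375, plus strand), pyruvate kinase, which makes pyruvate and ATP in the last step, stood at 2783, 3000.0, 2366, 2661 and 1709 TPM in the mock, 2378, 2055, 2749, 2849.8 and 2285 TPM in the NCAC and from 1102 to 2879 with a median of 1601 TPM in the CAC libraries at 8 weeks. Of the 7 CAC libraries 6 lay below the mock mean, and replicate 3, at 2879 TPM, lay above it. The difference was -0.57 ± 0.17 (adjusted p 0.00242) as deposited and -1.09 ± 0.17 (adjusted p 6.28e-07) rescaled, and without the 3 outlying libraries -0.34 as deposited, not called, and -0.81 rescaled, called. The table does not separate the M1 and M2 splice forms of Pkm.

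Aldoa (aldolase), Gapdh and Pgam1, the broadly expressed mutase, were called higher as deposited at 8 weeks, by 0.38 ± 0.14, 0.34 ± 0.11 and 0.59 ± 0.14, and were not called rescaled (-0.15, -0.18 and 0.09). The deposited calls of Aldoa and Gapdh were lost without replicate 5 of the mock group (0.22 and 0.21). Triosephosphate isomerase (Tpi1), phosphoglycerate kinase (Pgk1), the muscle enolase Eno3 and the broad enolase Eno1 were not called as deposited (-0.31, -0.05, -0.35 and -0.01) and were called lower rescaled (-0.83, -0.57, -0.87 and -0.49). Eno1b, a near-identical copy of Eno1, had a mean of 28.7 TPM beside 15.3 TPM for Eno1, so the division of reads between them, and the Eno1 value, is uncertain. Against NCAC at 8 weeks Eno3 was called lower on both scales (-0.40 ± 0.18 (adjusted p 0.0416) as deposited and -0.89 ± 0.19 (adjusted p 0.000149) rescaled). The deposited call was lost without replicate 1, 2 or 4 of NCAC, or replicate 1 or 6 of CAC, and without the 3 outlying libraries the difference was -0.05.

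Lactate dehydrogenase and glycerol-3-phosphate dehydrogenase (Gpd1) recycle the NADH that glycolysis makes. Ldha, which encodes the subunit of fast muscle, stood at 1698, 1892, 1337, 1695 and 1162 TPM in the mock, 1460.1, 1524, 1392, 1898 and 1351 TPM in the NCAC and from 962 to 2598 with a median of 1889.8 TPM in the CAC libraries at 8 weeks. The groups overlapped and neither scale gave a call (0.20 ± 0.17 (adjusted p 0.28) as deposited and -0.32 ± 0.17 (adjusted p 0.117) rescaled). Ldhb (chr6:142490249-142507957, minus strand), which encodes the subunit of heart and oxidative fibres, stood at 141, 192, 201, 109 and 211 TPM in the mock and 189.7, 265, 217, 152 and 292 TPM in the NCAC libraries, and from 83.0 to 142 with a median of 93.8 TPM in the CAC libraries. Every CAC library lay below every NCAC library and below the mock mean, although 3 lay within the mock range. The difference from mock was -0.67 ± 0.27 (adjusted p 0.0211) as deposited and -1.19 ± 0.30 (adjusted p 0.000858) rescaled, and that from NCAC was -1.07 ± 0.27 (adjusted p 0.000456) as deposited and -1.55 ± 0.30 (adjusted p 2.48e-05) rescaled. The deposited call against mock was lost without replicate 3 (-0.60) or 5 (-0.59) of the mock group, and that against NCAC in none of the 12 such fits.

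At 6 weeks Ldhb stood at 177, 58.7, 136, 166 and 93.8 TPM in the CAC and 127, 249, 212, 232 and 174 TPM in the mock libraries. The difference was -0.72 ± 0.29 (adjusted p 0.0266) as deposited and -1.15 ± 0.32 (adjusted p 0.00432) rescaled, and the deposited call was lost in 5 of the 10 fits that left out 1 library. Gpd1 was not called as deposited at 8 weeks (-0.30 ± 0.30) and was called lower rescaled (-0.82 ± 0.31). Its CAC values at 8 weeks ran from 81.0 to 655 with a median of 338 TPM, with the low end in replicates 1 and 6 and the high end in replicate 3. The rescaled call was lost without replicate 1 or 4 of the mock group, replicate 1 or 6 of CAC, or the 3 outlying libraries (-0.16).

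Glycogen breakdown held 4 members: Pygm, the muscle glycogen phosphorylase, and 3 subunits of the kinase that activates it (Phka1, Phkb and Phkg1). None of the 4 was called as deposited at 6 or 8 weeks. Of all genes tested, 69.4% had an upward call as deposited in the 8-week comparison with mock, and 5.09% a downward one. The matching 6-week shares were 60.7% and 3.26%. The deposited 8-week differences of Pygm, Phka1, Phkb and Phkg1 were 0.15, -0.03, -0.22 and -0.13. In limma 0 of the 4 stood at an unadjusted p under 0.05 in either week, a count given without the share of all genes at that threshold. Rescaled, all 4 were called lower at 8 weeks (-0.37, -0.55, -0.73 and -0.65) and 2, Phkb and Phkg1, at 6 weeks, where 24.2% and 18.1% of all genes were called lower. Pygm (chr19:6384399-6398459, plus strand) stood at 3072, 3554, 2575, 3609.8 and 1770.2 TPM in the mock, 2801, 2404, 3082, 3869.9 and 3332 TPM in the NCAC and from 2606 to 3921 with a median of 3121 TPM in the CAC libraries at 8 weeks, with overlap on both scales, although rescaled all 7 CAC libraries lay below the mock mean. Without the 3 outlying libraries the rescaled calls of Pygm (-0.25) and Phka1 (-0.15) were lost, and they were also lost without replicate 1, 2 or 4 of the mock group or replicate 1 or 6 of CAC, each taken alone, and Phka1 without replicate 2 of CAC.

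Glycogen synthesis held 5 members: Pgm2 and Ugp2, which make the glucose donor, Gyg, the protein primer, Gys1, the muscle glycogen synthase, and Gbe1, the branching enzyme. As deposited 4 were called higher and 1 lower at 6 weeks (60.7% and 3.26% of all genes), and 1 higher and 1 lower at 8 weeks (69.4% and 5.09%). Rescaled, 1 was called higher and 1 lower at 6 weeks (16.9% and 18.1% of all genes), and 0 higher and 2 lower at 8 weeks (24.9% and 24.2%). The symbol Pgm2 has named both phosphoglucomutase genes: RefSeq (GRCm38.p6) lists it as an older symbol of the gene on chromosome 4 now called Pgm1, and as the current symbol of one on chromosome 5. The table's Pgm2 had a mean of 484 TPM and its Pgm1 a mean of 3.13 TPM, and no position is given here because the annotation behind the table is not given in the sources used here.

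Pgm2 stood at 559.6, 663, 518, 526 and 394 TPM in the mock, 416, 468, 356, 710.0 and 537 TPM in the NCAC and from 112 to 748 with a median of 425 TPM in the CAC libraries at 8 weeks. Replicates 1 and 6 of CAC held 112 and 165 TPM, and replicate 3, at 748 TPM, stood above every mock library. The difference was -0.57 ± 0.27 (adjusted p 0.0472) as deposited and -1.09 ± 0.27 (adjusted p 0.000851) rescaled. Without the 3 outlying libraries it was -0.03 as deposited, not called, and -0.49 rescaled, and the deposited call was lost in 7 of the 12 fits that left out 1 library. At 6 weeks every CAC library, at 186, 345, 369, 369 and 419 TPM, lay below every mock library, at 593, 453, 454, 508 and 675 TPM. The 6-week difference was -0.70 ± 0.29 (adjusted p 0.03) as deposited and -1.14 ± 0.29 (adjusted p 0.00234) rescaled, and the deposited call was lost without replicate 1 or 5 of the mock group or replicate 1 of CAC.

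Gys1 (chr7:45434844-45456619, plus strand) stood at 338, 429, 358, 304 and 249 TPM in the mock, 355, 328, 457, 359 and 317 TPM in the NCAC and from 321 to 438 with a median of 368 TPM in the CAC libraries at 8 weeks. It was not called as deposited (0.15 ± 0.12, adjusted p 0.242) and was called lower rescaled (-0.37 ± 0.10, adjusted p 0.00141), where each CAC library lay below each mock library. Gyg was called higher on both scales at 6 weeks (0.81 ± 0.16 (adjusted p 4.03e-05) as deposited and 0.38 ± 0.11 (adjusted p 0.00855) rescaled) and as deposited only at 8 weeks (0.73 ± 0.15 (adjusted p 2.37e-05) as deposited and 0.21 ± 0.11 (adjusted p 0.0892) rescaled). Its CAC values at 6 weeks were 662, 456, 381, 380.5 and 384 TPM against 295, 246, 226, 248 and 243 TPM in the mock libraries, without overlap, and the rescaled call was lost without replicate 1 of CAC (0.29). Ugp2 and Gbe1 were called higher as deposited at 6 weeks (0.78 ± 0.22 and 0.74 ± 0.19) and not rescaled (0.34 and 0.31), and at 8 weeks neither scale called them. Ugp2 reached 1734 TPM in replicate 1 of CAC at 6 weeks and 1663 and 1427 TPM in replicates 1 and 6 at 8 weeks, its 3 highest values in the series.

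The 2 members that target protein phosphatase 1 to glycogen, which switches glycogen synthase on and phosphorylase off, were Ppp1r3c and Ppp1r3a. Ppp1r3c (chr19:36731731-36736653, minus strand), which encodes the broadly expressed subunit PTG, stood at 89.1, 99.4, 60.5, 58.1 and 99.4 TPM in the mock and 96.4, 55.8, 71.4, 144 and 59.9 TPM in the NCAC libraries at 8 weeks, and from 146 to 1111 with a median of 582 TPM in the CAC libraries. Each CAC library lay above each mock and NCAC library as deposited, and 6 of the 7 did rescaled. The means were 81.3 ± 20.6 TPM (SD, n = 5) and 575 ± 335 TPM (SD, n = 7), a ratio of 7.08, or 4.97 rescaled. The log2 difference was 2.57 ± 0.57 (adjusted p 9.34e-05) as deposited and 2.05 ± 0.58 (adjusted p 0.00291) rescaled, and each fit without 1 library kept both calls. At 6 weeks the CAC libraries stood at 938, 369, 1210.1, 345 and 424 TPM, above every mock library, at 171, 37.0, 106, 261 and 70.4 TPM, and above every NCAC library, at 184, 78.1, 88.7, 142 and 67.2 TPM. The 6-week difference from mock was 2.44 ± 0.62 (adjusted p 0.000767) as deposited and 2.01 ± 0.62 (adjusted p 0.0102) rescaled, and that from NCAC 2.45 ± 0.62 (adjusted p 0.0006) as deposited and 1.96 ± 0.62 (adjusted p 0.00987) rescaled.

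High Ppp1r3c also occurred in single libraries of every treatment at 4 weeks. Its values there were 38.7, 725, 70.6, 577 and 59.5 TPM in CAC, 43.9, 405, 76.8, 343 and 79.6 TPM in NCAC and 76.7, 112, 71.5, 124 and 447 TPM in mock libraries. Replicates 2 and 4 were high in both CAC and NCAC, and replicate 5 in the mock group, so the 4-week groups overlapped. The standard error of its differences at 6 and 8 weeks, 0.57 to 0.62, was the second largest among the members, after that of Pfkfb3. Ppp1r3a (chr6:14713977-14755274, minus strand), the subunit of striated muscle that anchors the phosphatase to glycogen and the sarcoplasmic reticulum, stood at 105, 114, 106, 99.8 and 126 TPM in the mock, 116, 107, 158, 141 and 107 TPM in the NCAC and from 94.7 to 187 with a median of 121 TPM in the CAC libraries at 8 weeks. It was not called as deposited (0.18 ± 0.16) and was called lower rescaled (-0.34 ± 0.14, adjusted p 0.0393), a call lost in 6 of the 12 fits that left out 1 library.

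**Figure D2:**
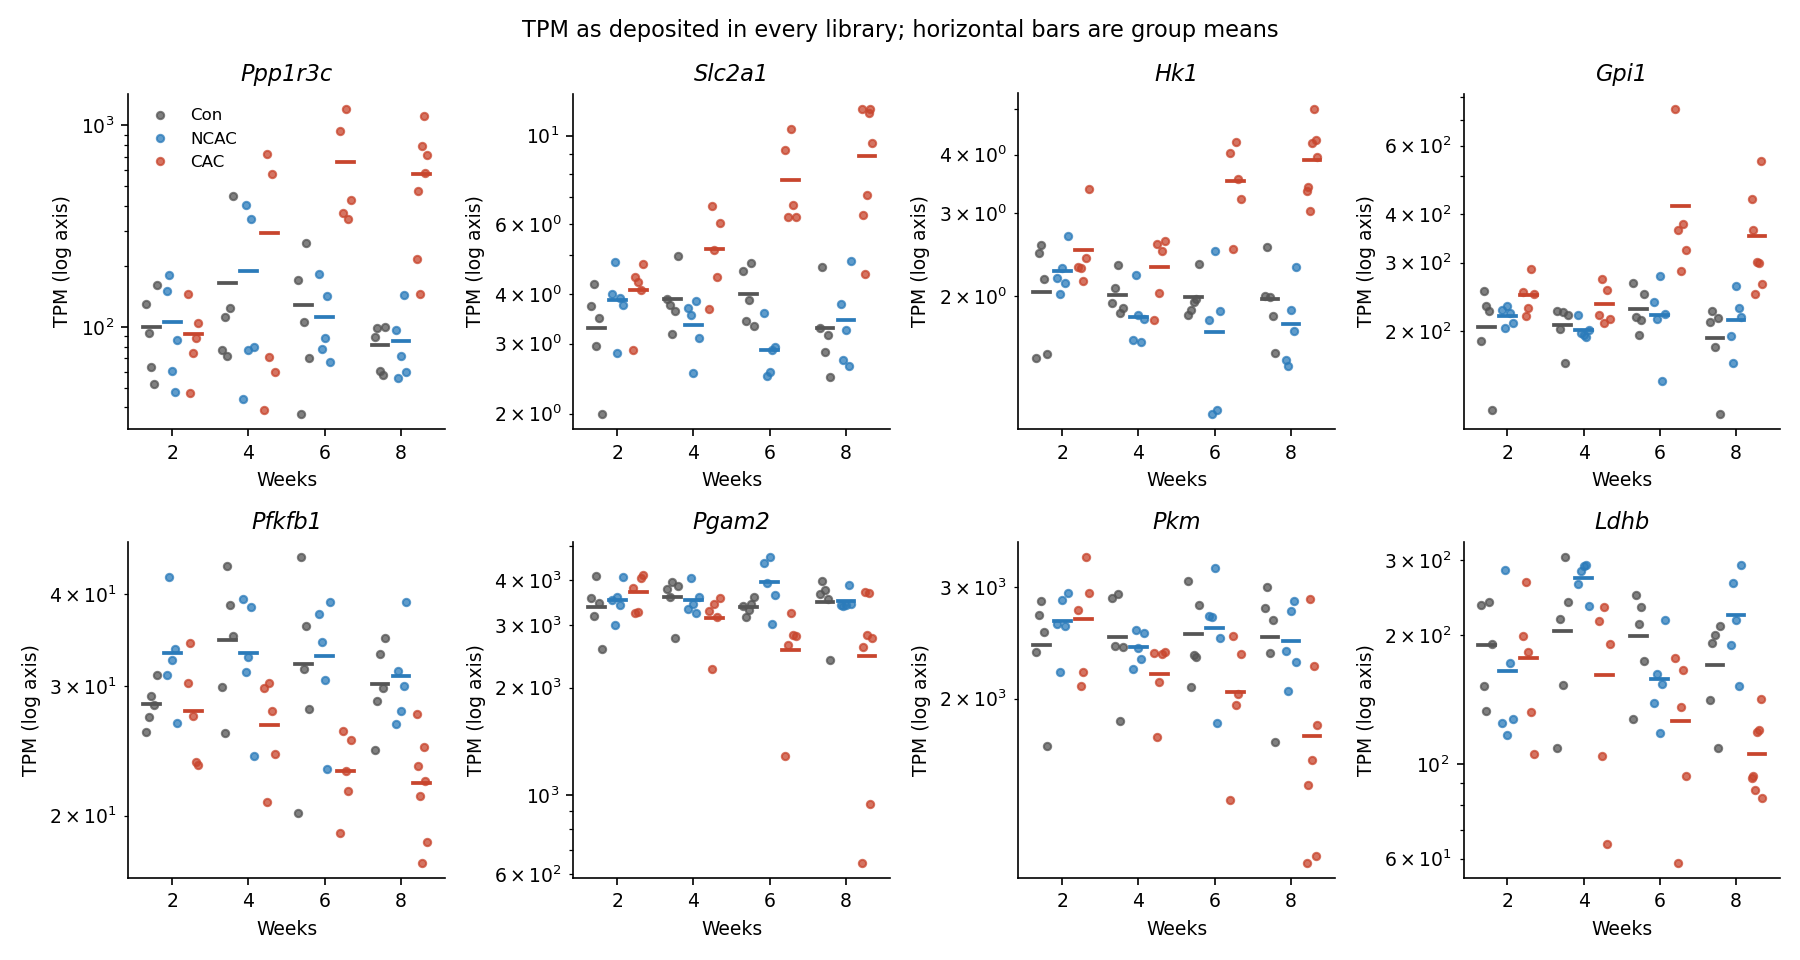
TPM as deposited in each of the 62 libraries (y axis, log scale) by week (x axis) for 8 members, with mock libraries in grey, NCAC in blue and CAC in red. Horizontal bars are group means; the CAC means of Ppp1r3c, Slc2a1, Hk1 and Gpi1 lie above those of both other groups at 6 and 8 weeks, with some CAC points of Slc2a1 and Gpi1 among the others at 8 weeks, and the CAC means of Pfkfb1, Pgam2, Pkm and Ldhb lie below.

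The sequence upstream of 3 members is shown because Ppp1r3c rose most and because Pgam2 and Pgam1 are a muscle and a broad isoform of the same step whose ratio fell. Each is from the RefSeq table of promoters (GRCm38.p6), 5′ to 3′ on the gene's strand, and ends 1 base (Ppp1r3c), 64 bases (Pgam2) or 53 bases (Pgam1) before the first base of the gene in GENCODE M21. Capitals mark matches on either strand to ACGTG (the core of the hypoxia response element), CAGCTG (an E box of myogenic factors), GTAAACA (FOXO), TTCNNNGAA (STAT) or the MEF2 motif. CACGTG, another E box, contains ACGTG, so that a palindromic match counts for both.
Ppp1r3c (chr19:36736654-36736854, minus strand): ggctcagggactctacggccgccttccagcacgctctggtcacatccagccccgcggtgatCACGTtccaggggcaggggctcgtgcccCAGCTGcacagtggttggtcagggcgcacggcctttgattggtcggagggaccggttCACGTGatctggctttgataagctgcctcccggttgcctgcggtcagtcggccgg
Pgam2 (chr11:5803797-5804046, minus strand): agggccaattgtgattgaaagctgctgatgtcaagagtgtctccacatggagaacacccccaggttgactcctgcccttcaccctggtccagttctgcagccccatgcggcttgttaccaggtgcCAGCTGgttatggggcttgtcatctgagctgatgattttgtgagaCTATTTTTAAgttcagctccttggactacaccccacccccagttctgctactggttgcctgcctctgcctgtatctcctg
Pgam1 (chr19:41911621-41911870, plus strand): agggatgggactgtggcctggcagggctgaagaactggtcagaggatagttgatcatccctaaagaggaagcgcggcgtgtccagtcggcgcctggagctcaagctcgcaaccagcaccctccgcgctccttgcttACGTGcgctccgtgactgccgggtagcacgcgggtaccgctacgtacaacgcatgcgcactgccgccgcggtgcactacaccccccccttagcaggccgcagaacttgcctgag
The 201 bases of Ppp1r3c hold 1 CACGTG, a further match to ACGTG and 1 CAGCTG, motifs found in 4.36%, 13.0% and 10.3% of all 32851 promoter windows trimmed to the same length. The 250 bases of Pgam2 hold 1 CAGCTG and 1 MEF2 match, found in 13.0% and 2.92% of all windows of that length, and those of Pgam1 hold 1 ACGTG, found in 16.6%. No match to GTAAACA or TTCNNNGAA lies in these 3 windows, and the motifs stand in 3.17% and 7.02% of all windows of 250 bases. Of 31 members matched in the table, 46 windows in all, ACGTG was found for 13 members, CACGTG for 5, CAGCTG for 11, the MEF2 motif for 3, TTCNNNGAA for 1 and GTAAACA for 0. By window the counts were 16, 5, 11, 3, 1 and 0 of 46 in the same order. The shares of all windows of 250 bases were 16.6%, 6.02%, 13.0%, 2.92%, 7.02% and 3.17%. Some members have several windows, so the counts by member cannot be set against these shares. A match describes letters and was not tested as a binding site.

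Ratios of 2 members within a library do not depend on how the library is scaled, so they were compared directly. Across 9 ratios and 4 comparisons (CAC with mock and with NCAC at 6 and 8 weeks), 24 of 36 exact two-sided permutation tests had a Benjamini-Hochberg adjusted p under 0.05. The ratio of muscle to broad isoform fell at 4 steps in all 4 comparisons, with Pfkm to Pfkp among them as a description only. Ratios of other muscle-abundant to broad genes were not computed. The summed markers of muscle fibres were also lower in CAC than in mock muscle at 8 weeks on the rescaled values. The falls therefore cannot be read as particular to these steps. At 8 weeks Slc2a4 to Slc2a1 was 98.1 ± 11.7 in the mock (SD, n = 5) and 46.0 ± 18.5 in the CAC libraries (SD, n = 7), a log2 difference of -1.17 (exact permutation p 0.00505, adjusted 0.0143). Replicate 3 of CAC, at 81.8, lay within the range of the mock and of the NCAC libraries for this ratio. Hk2 to Hk1 was 56.9 ± 4.30 and 31.6 ± 6.07, a difference of -0.87 with no overlap (exact permutation p 0.00126, the smallest that 7 against 5 libraries allow, adjusted 0.0114). Pfkm to Pfkp was 2797 ± 429 and 1392 ± 191, a difference of -1.0 with the same p. Pfkp passed the filter on low values only through late CAC muscle, the libraries compared here, so this p is no independent support. The 24 calls include those of this ratio. Pgam2 to Pgam1 was 214 ± 36.0 and 93.7 ± 41.0, a difference of -1.33 (exact permutation p 0.00379, adjusted 0.0143), and all 7 CAC libraries lay below all mock libraries.

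The differences of these 4 ratios from mock at 6 weeks were -0.56, -0.46, -1.27 and -0.92 in the same order, each with no overlap and an exact permutation p of 0.00794, the smallest that 5 against 5 libraries allow. Against NCAC at 8 weeks they were -1.20, -1.15, -1.19 and -1.42. These 4 ratios kept their calls in the 4 comparisons without the 3 outlying libraries and without any single library, and Pgam2 to Pgam1 at 8 weeks against mock was -0.90. The calls of Pfkm to Pfkp are again a description only, because Pfkp passed the filter through late CAC muscle. With a pseudocount of 1 in both genes, Hk2 to Hk1 lost its call at 6 weeks against both groups (-0.25 against mock) and Slc2a4 to Slc2a1 against NCAC (-0.71). That pseudocount also shrank Pfkm to Pfkp to -0.70 and -0.62 against mock at 6 and 8 weeks, and to -0.66 and -0.69 against NCAC, with all 4 calls kept.

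The remaining 5 ratios were not all of that form. Fbp2 to Pfkm, which sets the backward against the forward enzyme of 1 step, rose in all 4 comparisons, by 1.14 at 8 weeks against mock (exact permutation p 0.00379, adjusted 0.0143) with no overlap. Against NCAC at 6 weeks its call was lost without replicate 2, 3, 4 or 5 of CAC, each taken alone. Pfkm to Pfkl fell in 3 of 4, with a difference of -0.75 at 8 weeks against mock, and against NCAC at 6 weeks was -0.31 (adjusted exact permutation p 0.0879). Its 6-week call against mock was lost without the 3 outlying libraries and without replicate 1, 2, 4 or 5 of the mock group or replicate 1 of CAC. Ldha to Ldhb was called at 8 weeks against NCAC (1.29, adjusted exact permutation p 0.0152). Against mock it was 0.88 (adjusted exact permutation p 0.0545), and it was called there without replicate 4 of the mock group, replicate 1 or 6 of CAC, or the 3 outlying libraries. Eno3 to Eno1 and Pygm to Gys1 were called in 0 of 4 comparisons, with differences from mock at 8 weeks of -0.34 and -0.0037. Eno3 to Eno1 was called there without replicate 2 of CAC (-0.41).

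**Figure D3:**
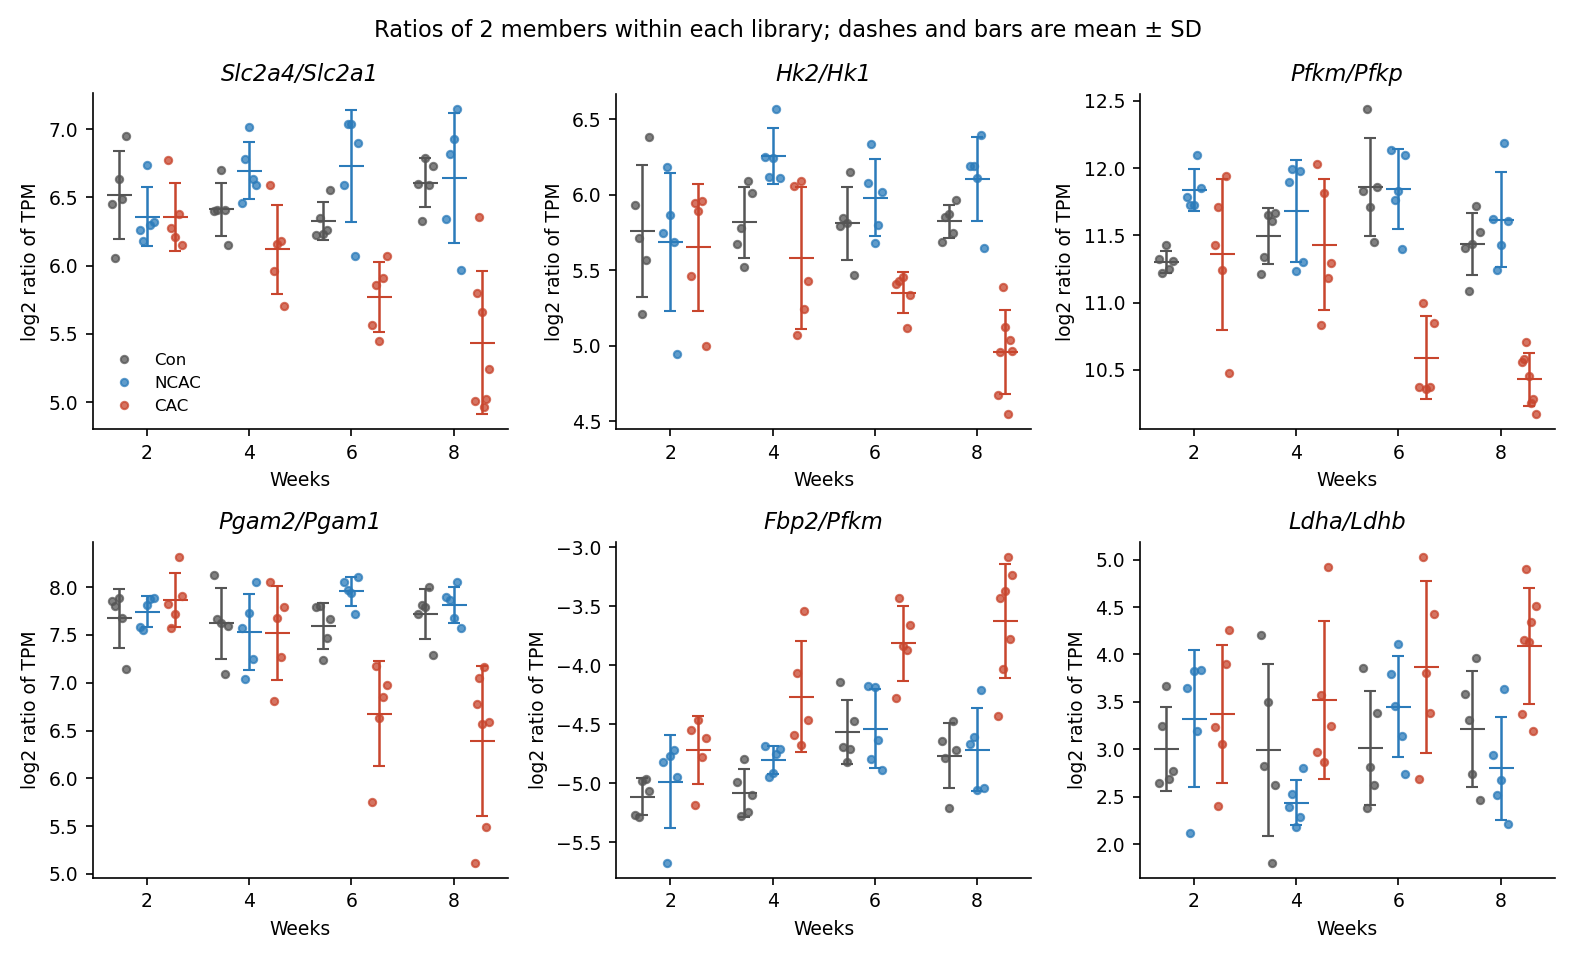
Log2 ratio of the TPM of 2 members within each library (y axis) by week (x axis) in mock (grey), NCAC (blue) and CAC (red) libraries, with mean and SD. In CAC muscle the means of the upper 3 ratios and of Pgam2 to Pgam1 lie lower at 6 and 8 weeks than in the other groups, and that of Fbp2 to Pfkm lies higher. Single CAC points of Slc2a4 to Slc2a1 at 8 weeks and of Fbp2 to Pfkm lie among those of the other groups.

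Slc2a1, Hk1, Pfkl, Pfkp and Pgam1 are also made by cells other than muscle fibres, and markers of such cells moved with the groups. Macrophage markers summed to 19.8 ± 7.76 TPM in the mock and 56.8 ± 24.5 TPM in the CAC libraries at 8 weeks (range 13.8 to 32.5 and 37.8 to 92.6 TPM), and 6 of 6 had a higher mean in CAC. Endothelial markers summed to 104 ± 16.9 and 169 ± 16.0 TPM (range 83.3 to 120.1 and 147 to 193 TPM), with 4 of 5 higher. Fibroblast markers summed to 230.1 ± 62.6 and 378 ± 115 TPM, with 2 of 5 higher. Neutrophil markers, 5 of 5 higher, summed to 6.29 ± 1.29 and 24.6 ± 15.7 TPM, and adipocyte markers, 5 of 5 higher, to 7.43 ± 4.94 and 29.0 ± 12.2 TPM. Melanoma markers were near 0 in both groups (1.08 ± 0.452 and 1.64 ± 0.419 TPM), most of it Sox10, with Tyr at 0 in 6 of 7 CAC libraries and 5 of 6 markers higher in CAC. Rescaled, the macrophage sums were 21.2 ± 6.04 and 43.2 ± 18.6 (range 14.9 to 30.0 and 26.6 to 72.1). The endothelial sums were 114 ± 12.9 and 129 ± 15.5 rescaled (range 98.2 to 133 and 110.1 to 157). Fibroblast sums were 248 ± 44.2 and 285 ± 70.7 rescaled and melanoma sums 1.14 ± 0.341 and 1.25 ± 0.340. Neutrophil sums were 6.86 ± 1.33 and 19.1 ± 13.1 and adipocyte sums 7.91 ± 5.13 and 22.2 ± 10.1 on that scale. The macrophage and endothelial ranges thus overlapped rescaled, as did those of fibroblast, adipocyte and melanoma markers, and those of neutrophil markers did not. The part of these cells in the members' differences was not tested.

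Single muscles differed widely within late CAC. At 8 weeks replicates 1 and 6 each had 23 of 34 members below all mock libraries on the rescaled values, whereas replicate 3 had 12, and the remaining 4 had 16 to 19. Each CAC library also had 6 to 8 members above all mock libraries rescaled. As deposited, each had 2 to 13 members below and 11 to 17 above. The share of all genes outside the range of the mock libraries was not computed. Replicates 1 and 6 were also outliers over all genes, so these counts cannot be read as particular to the members. Replicates 1 and 6 held the 2 lowest CAC values of Tpi1, Pgam2, Eno3, Gpd1 and Pgm2, and the 2 highest of Gpi1, Gyg and Ugp2. Replicate 3, which also held the most red blood cell RNA (14744 TPM summed over haemoglobin and Alas2, against a group median of 637), had the highest Tpi1, Gpd1 and Pgm2 of its group at 2741, 655 and 748 TPM. In the NCAC groups, replicate 4 of NCAC at 6 weeks had 26 of 34 members below all mock libraries as deposited and 2 rescaled. That library had the lowest size factor of the series, 0.614, and transcripts of the mitochondrial genome took 61.1% of its TPM. The share of all genes was not computed for it either. In the mock group at 8 weeks, replicate 5 was the lowest of its group for Pgam2, at 2388 TPM, Pkm, at 1709 TPM, and Tpi1, at 1417 TPM.

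**Figure D4:**
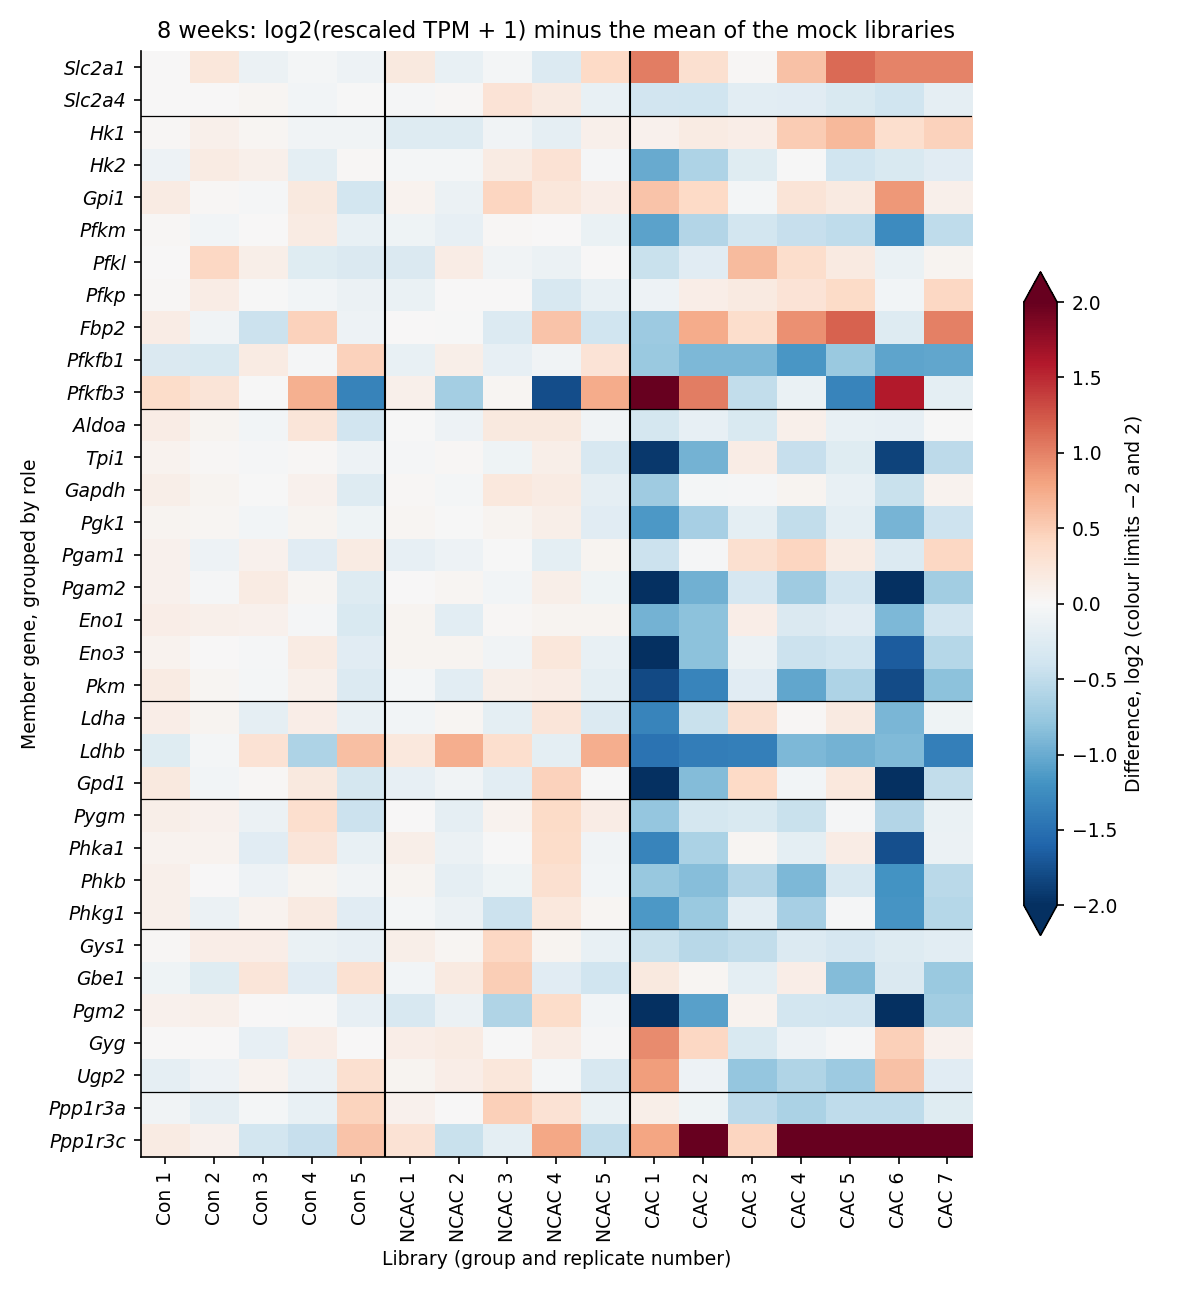
Log2(rescaled TPM + 1) of each member (rows, grouped by role) in each 8-week library (columns) minus the mean of the mock libraries, red for higher and blue for lower, with colours cut at -2 and 2. CAC replicates 1 and 6 are darkest blue at Tpi1, Pgam2, Eno3, Gpd1 and Pgm2, and Ppp1r3c is red in the CAC libraries.

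Levels spanned a wide range among the members. Aldoa, Eno3, Pgam2, Pygm, Gapdh, Pfkm and Pkm were the 7 most abundant, with means over all libraries from 7397 TPM for Aldoa to 2373 TPM for Pkm, which ranked 23 and 38 among the genes kept. At the other end were Slc2a1 (4.63 TPM), Pfkl (4.54 TPM), Hk1 (2.36 TPM) and Pfkp (1.02 TPM). The 34 members together took 3.46 ± 0.637% of TPM in the mock and 3.55 ± 0.557% in the CAC libraries at 8 weeks, which overlapped. As a share of TPM outside the mitochondrial genome they took 6.72 ± 0.465% and 5.72 ± 1.04%, and these ranges also overlapped, with the lowest CAC library at 4.08% and the highest at 6.85%. A sum of this kind follows its most abundant members.

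Of 55 other genes of the pathway, 40 passed the minimum level and were tested in the same fit. At 8 weeks 22 were called higher and 4 lower in CAC than in mock muscle as deposited, and 9 higher and 15 lower rescaled, against 69.4% and 5.09% of all genes as deposited and 24.9% and 24.2% rescaled. The 7 genes of the pentose phosphate pathway, which branches from glucose 6-phosphate to make NADPH and ribose, were all called higher as deposited, where 69.4% of all genes were, and 2 were rescaled (24.9% of all genes): G6pdx, its first enzyme (0.79 ± 0.10 (adjusted p 4.83e-09) as deposited and 0.42 ± 0.08 (adjusted p 3.25e-05) rescaled), and Pgd (0.70 and 0.27). Tkt (0.65 and 0.24) and Rpe (0.48 and 0.03) were called as deposited only. Among the other glycolytic and gluconeogenic enzymes, Pck2, mitochondrial phosphoenolpyruvate carboxykinase, was called higher on both scales (0.93 and 0.53), as was Pfkfb4, a relative of Pfkfb1 (1.11 and 0.60). Of 13 other glycogen genes 8 were called higher as deposited and 0 lower, (69.4% and 5.09% of all genes), and rescaled 3 higher and 2 lower (24.9% and 24.2%), among them Phkg2, a catalytic subunit of phosphorylase kinase, (0.75 and 0.31) and the table's Pgm1 (0.85 and 0.43). Called lower on both scales, and named after their values were seen, were Pcx, pyruvate carboxylase (-1.07 and -1.58), Slc16a3, the lactate exporter MCT4 (-0.53 and -1.05), Tbc1d1, a regulator of GLUT4 traffic (-0.73 and -1.23), and Ldhd, D-lactate dehydrogenase (-0.51 and -1.0).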

How the data were processed

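The authors deposited 1 table of TPM values (transcripts per 1000000) with a column for each of the 62 libraries. Per the labels' protocols, RNA was prepared with a stranded mRNA kit and sequenced on an Illumina NovaSeq instrument, and per the submitters' processing notes the build was mm10. No source used here names the aligner, counter or annotation. Each column summed to 1000000, so the deposited TPM keep no depth, sequencing depth is unknown, and no counting interval could be given.

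From these values, genes were kept if they averaged 1 TPM or more (11107 of 47643 symbols) and log2(TPM + 1) was modelled in limma (version 3.58.1, under R 4.3.3) by a mean for each of the 12 groups and 1 spread shared by all (50 residual degrees of freedom). A shared spread gives too small a p for CAC wherever its libraries scattered more. P-values were adjusted by Benjamini-Hochberg over all 11107 genes, with 0.05 as the threshold. Fold changes on this scale understate the change of genes of low TPM. The same fit was run after dividing each library by its median-of-ratios size factor (0.614 to 1.47, from 10999 genes). Ratios of 2 members were compared by exact two-sided permutation of libraries, adjusted over 36 tests. Python 3.11.15, numpy 2.4.6, pandas 2.3.3 and matplotlib 3.10.9 were used, and the fit was tested on simulated data. The simulated libraries were independent, with the same spread in every group and few changed genes, unlike these data. That test checks the code only.

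The members and lists were chosen with earlier results of these data known. For members called the same way on both scales in CAC against mock at 8 weeks, and for 11 listed members whatever their result, the mock and NCAC libraries at 8 weeks are given one by one and the CAC libraries by their lowest, median and highest value, with other weeks where stated. Of 55 other pathway genes, up to 8 with the smallest adjusted p at 8 weeks are named. Gene positions are from GENCODE M21 and upstream sequences from RefSeq (GRCm38.p6). Alternatives were another pseudocount, no filter, rescaling, array weights, the replicate number as a block, the compared week alone, and leaving out 3 outlying libraries or each library in turn. Combining rescaling with the others was chosen after seeing the data. Marker lists of 11 cell types were summed. Those not given in the report were slow fibre, with 4 of 5 genes higher in CAC than in mock muscle at 8 weeks, liver (5 of 5) and keratinocyte (1 of 4). The red blood cell list had 5 of 5 genes with a higher mean in CAC than in mock muscle at 8 weeks, and 1 of 5 at 6 weeks. The 8-week CAC means include the high value of replicate 3 given above. The mock libraries at 8 weeks summed to 786, 977, 1169, 324 and 345 TPM for this list, and the CAC median given above lay within their range.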

Additional observations from a re-analysis of the deposited data

Results flagged for a closer look

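In 9 of 108 groups of libraries, for the 18 members given by library, 1 library lay far from the rest of its group by Dixon's criterion, which chance meets in about 1 group in 20. Mock muscle at 6 weeks held 3 of them: replicate 5 for Hk1, highest at 2.34 TPM, replicate 4 for Hk2, highest at 140.3 TPM, and replicate 1 for Pfkfb3, highest at 99.1 TPM. In mock muscle at 8 weeks, Pgam2 was lowest in replicate 5, at 2388 TPM. In NCAC muscle at 6 weeks, Slc2a4 was lowest in replicate 4, at 194 TPM, and Pfkfb3 highest in replicate 2, at 75.3 TPM. In NCAC muscle at 8 weeks, replicate 4 was highest for both Fbp2, at 147 TPM, and Pgam2, at 3877 TPM. In CAC muscle at 6 weeks, Gpi1 was highest in replicate 1, at 747 TPM.

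The difference between CAC and mock muscle was larger at 6 than at 4 weeks for Pfkp, by 0.61 on the log2 scale as deposited in limma's interaction test. Rescaled, the interaction was not called. Pfkp passed the filter on low values only through the CAC libraries at 6 and 8 weeks (mean of 0.860 TPM without them), so this difference is a description and no independent support.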

How the results depend on the processing

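Rescaling turned the sign of members called on at least 1 scale. At 6 weeks against mock the rescaled log2 differences were -0.052 for Slc2a4, -0.070 for Aldoa, -0.17 for Gapdh, -0.42 for Pgk1 and -0.082 for Gys1. At 8 weeks they were -0.30 for Slc2a4, -0.40 for Hk2, -0.15 for Aldoa, -0.18 for Gapdh, -0.37 for Pygm, -0.37 for Gys1 and -0.34 for Ppp1r3a.

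The number of members called in CAC against NCAC at 4 weeks was 0 as deposited, 3 rescaled, 3 with array weights, 3 without the 3 outlying libraries and 1 with that week alone, and from 0 to 2 with 1 library left out. Rescaled it was 3, 5 without the outlying libraries, and from 0 to 4 with 1 library left out. Rescaled CAC against mock at 4 weeks went from 0 to 1 with array weights, without the outlying libraries and with the replicate block, and from 0 to 1 with 1 library left out. The 1 call of the difference between weeks 6 and 4 went to 0 with a pseudocount of 0.1, rescaled, without the outlying libraries and with only the compared weeks, and from 0 to 2 with 1 library left out. Rescaled calls against mock at 6 weeks ran from 9, without replicate 1 of CAC, to 20, without replicate 5 of CAC. The cause was not tested.

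Whether the replicate numbers pair the libraries could not be settled, because the labels name no batch. Of 60 same-numbered pairs, 15 had a correlation of deviations over 0.1 (range -0.33 to 0.33). For CAC with NCAC at 4 weeks the correlations were 0.0078, 0.253, -0.029, 0.221 and 0.253 for replicates 1 to 5. With the replicate block, 16 members were called against mock at 6 weeks and 15 at 8 weeks, and rescaled 20 and 19. The block ended the deposited calls of Gapdh at 6 weeks (0.27, limma adjusted p 0.0508) and, at 8 weeks, of Slc2a4 (0.21, 0.0804) and Pgm2 (-0.41, 0.181) against mock and Eno3 against NCAC (-0.31, 0.145). Rescaled, it ended those of Gpi1 (0.27), Gpd1 (-0.62), Phka1 (-0.39) and Ppp1r3a (-0.33) at 8 weeks and gave calls of Gpd1 (-0.77) and Phka1 (-0.54) at 6 weeks.

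The following calls were also lost, with limma adjusted p in brackets. With no filter these were Fbp2 (0.0557), Aldoa (0.0579), Gapdh (0.0793) and Pgm2 (0.0543) at 6 weeks, Slc2a4 (0.0581) and Pgm2 (0.0804) at 8 weeks, and Eno3 against NCAC at 8 weeks (0.0750). With array weights they were Slc2a4 (0.0837), Ldhb (0.0630) and Pgm2 (0.0589) at 8 weeks as deposited, and Hk2 (0.0627), Pygm (0.0693) and Ppp1r3a (0.0873) rescaled. With the compared week alone they were Pfkfb1 (0.0534) and Gys1 (0.0507) at 6 weeks, Pgam2 (0.0819) and Pgm2 (0.174) at 8 weeks, and Pgam2 (0.0707) and Eno3 (0.149) against NCAC at 8 weeks. Array weights and the compared week alone each gave calls of Pfkl and Pgam2 at 6 weeks as deposited, and array weights of Gpd1 and Phka1 rescaled. Rescaled combinations were chosen after seeing the data. Depth is unknown, and genes near 1 TPM are the least certain.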
